A study of Mus musculus with 11 samples.

Results

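The enzymes that modify the lysines and prolines of collagen, with the collagen chaperone that works beside them, were followed as a set of 10 genes through RNA-seq of AML12 cells, a hepatocyte line from mouse liver. The 10 genes were Plod1, Plod2, Plod3, P4ha1, P4ha2, P3h1, Lox, Loxl1, Loxl2 and Serpinh1, out of 24849 gene names in the count table. They were taken by name, and the set was chosen from measured values of these same libraries. Their levels and differences are therefore given as a description, and no p-value is printed for them. A member said to be called had an adjusted p under 0.05 over all genes tested, and that too is only a description. Of the 10 genes, 8 had enough counts to enter the fits, Loxl1 was near the floor of detection, and Lox had no count in any of the 11 libraries.

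The study compared wild-type AML12 cells (WT, 3 libraries, 5-6, 7 and 8) with cells in which TXNDC5 was disrupted (KO, 4 libraries) and with cells carrying a TXNDC5 construct (KI, 4 libraries). TXNDC5 is a protein disulfide isomerase of the endoplasmic reticulum. The KO cells were described as a stable CRISPR/Cas9 knockout selected for a puromycin resistance gene recombined into Txndc5, although their genotype is entered as TXNDC5 Knockdown, and the KI cells (genotype TXNDC5 Knockin) carry a construct described as made to overexpress TXNDC5 from the ROSA26 safe harbour. The 3 groups share the AML12 background, and no treatment, time point or number of clones was named for the libraries. The medium described for the line held serum, dexamethasone and an insulin, transferrin and selenium supplement. No source stated that the libraries of a group came from separate cultures, so the spread between them may be technical. Selection, editing and clonal origin cannot be told apart from the change in TXNDC5.

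Collagen chains are modified in the endoplasmic reticulum while they are still unfolded. Prolyl 4-hydroxylase, built from an alpha subunit (P4ha1 or P4ha2) and the beta subunit P4hb, makes the hydroxyprolines that stabilize the triple helix. Lysyl hydroxylases (Plod1, Plod2, Plod3) make the hydroxylysines that carry sugars and form stable cross-links, and of these Plod2 is known for acting on the telopeptides at the chain ends. P3h1 adds a hydroxyl group at another position of proline in a complex with Crtap and the isomerase Ppib, and Serpinh1 (HSP47) binds the folded procollagen. Outside the cell, the copper-dependent lysyl oxidases (Lox, Loxl1, Loxl2 and relatives) oxidize lysine and hydroxylysine to start cross-linking. The hydroxylases use iron, oxygen and ascorbate, and several of their genes are known targets of the hypoxia-inducible factors, while SERPINH1 is a known target of the heat shock response.

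RefSeq promoter windows were found for 6 of the 10 genes (7 windows, since P3h1 had 2 starts) and not for Plod2, Lox, Loxl1 and Loxl2. The 250 bases before the start are shown for the 2 genes that were higher in both edited lines, Plod1 and Serpinh1, and for P4ha2, which was lower in both. Each is given 5′ to 3′ on the strand of its gene, in GRCm38.p6 coordinates: Plod1 at chr4:147936777-147937026 (minus strand), P4ha2 at chr11:54100674-54100923 (plus strand) and Serpinh1 at chr7:99353240-99353489 (minus strand). Capitals mark ACGTG or GCGTG on either strand, the core letters bound by hypoxia-inducible factors.
Plod1: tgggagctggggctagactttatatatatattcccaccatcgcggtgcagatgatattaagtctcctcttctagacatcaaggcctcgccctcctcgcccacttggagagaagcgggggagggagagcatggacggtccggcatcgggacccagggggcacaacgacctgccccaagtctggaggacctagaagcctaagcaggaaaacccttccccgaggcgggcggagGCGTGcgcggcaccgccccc
P4ha2: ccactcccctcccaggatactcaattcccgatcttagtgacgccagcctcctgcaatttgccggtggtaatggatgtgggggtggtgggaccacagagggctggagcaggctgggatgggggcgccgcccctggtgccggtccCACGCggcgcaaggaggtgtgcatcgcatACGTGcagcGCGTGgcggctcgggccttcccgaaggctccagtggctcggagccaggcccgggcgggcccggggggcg
Serpinh1: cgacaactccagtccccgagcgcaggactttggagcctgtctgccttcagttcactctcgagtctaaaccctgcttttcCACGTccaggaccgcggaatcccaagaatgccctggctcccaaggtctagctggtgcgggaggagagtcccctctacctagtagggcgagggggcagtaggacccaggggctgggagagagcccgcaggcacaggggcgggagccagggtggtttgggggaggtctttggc

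The letters ACGTG, searched on both strands with overlapping matches counted separately, were in 5 of the 7 windows, against 16.6% of the 32851 windows of 250 bases in the whole table. GCGTG was in 5 of the 7 windows, against 28.2% of all windows. In the printed sequences, the ACGTG of Serpinh1 began 171 bases before the start and that of P4ha2 78 bases before it, and the GCGTG of Plod1 began 20 bases before it. The heat shock element core GAANNTTC was in 0 of the 7 windows, against 6.69% of all windows, which says only that these letters are not in these stretches. The windows of the whole table were not matched to these 7 for base composition, so no enrichment is read from the shares. A match of letters is a description of the sequence and no measurement of binding was made.

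The libraries held 29840366 to 38422243 counts each. Levels are given as CPM, the counts of a gene scaled to a common library size, after TMM scaling over the 11 libraries, and differences as log2 fold changes with their standard error (SE) from pairwise edgeR fits on the whole table. The 2 most abundant newly assembled entries took 14.8% to 22.4% of the counts in WT. They took 6.41% to 8.45% in KO and 7.71% to 12.8% in KI. Member values are therefore also given without TMM scaling where that changes a call, and for Plod1, Plod2, Loxl2 and Serpinh1. Without TMM, the median of all genes shifted to 0.38 in KO against WT and 0.31 in KI against WT on the log2 scale, from -0.03 and -0.02 with it. Txndc5 itself was at 8.50 to 12.9 CPM in KO, 138 to 147 CPM in WT and 158 to 180 CPM in KI. It was lower in KO than in WT by edgeR's quasi-likelihood test (log2 fold change -3.82, SE 0.15, adjusted p = 4.09e-08), and the difference of KI from WT (0.24, SE 0.13, adjusted p = 0.136) did not pass the threshold, although the KI and WT libraries did not overlap. Scaled by library totals alone, the latter was 0.57 (adjusted p = 0.00623). A direction drawn from the KI libraries therefore rests on their label.

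The label of the line was checked against cell type markers. All 6 hepatocyte markers had counts in every library. Their summed level was 7612 to 9733 CPM in KO, 4670 to 6510 CPM in WT and 6398 to 7855 CPM in KI. By edgeR's quasi-likelihood test, 3 of them were higher in KO than in WT (Alb 2.99, SE 0.26, adjusted p = 5.68e-06, Apoa1 3.82, SE 0.26, adjusted p = 1.11e-06, and Hnf4a 1.35, SE 0.17, adjusted p = 6.29e-05) and Ttr was lower (-0.93, SE 0.18, adjusted p = 0.00139). In KI against WT, 2 were higher (Krt8 0.62 and Krt18 0.86) and Alb was lower (-1.06). Ttr (-0.47), Apoa1 (-1.04) and Hnf4a (0.31) were not called there. The Krt18 levels of KI and WT overlapped, with KI 8 at 1231 CPM and WT 5-6 at 1287 CPM. The largest part of the hepatocyte sum was Krt8 in WT (2427 to 3357 CPM) and KI (3866 to 4701 CPM), and Alb in KO (3589 to 4767 CPM). Apoa1 was low in WT (1.25 to 1.98 CPM) and KI (0.392 to 1.125 CPM), so the higher sum in KI does not stand for all 6 markers. The 6 markers of stellate cells and fibroblasts, the main collagen makers of liver, summed to at most 0.782 CPM in KO, 0.357 CPM in WT and 0.639 CPM in KI, and Lrat was at 0. The 3 endothelial markers summed to at most 0.425 CPM in any library. The 3 leukocyte markers summed to 1.32 to 2.09 CPM in KO, 6.64 to 9.20 CPM in WT and 2.52 to 5.66 CPM in KI, with Adgre1 at 0. The hepatocyte and leukocyte lists both moved with the groups, and their part in the results was not tested.

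Plod2 was the member that differed most between the groups among the 8 fitted. In WT it was at 588, 555 and 367 CPM in libraries 5-6, 7 and 8. In KO it was at 17.4, 15.7, 16.0 and 12.6 CPM, and in KI at 256, 213, 251 and 279 CPM in libraries 5 to 8. All 3 groups were separate, with the KO libraries far below the others and the KI libraries between. KO against WT gave a log2 fold change of -5.05 (SE 0.20), a 33.1-fold difference, beside -1.01 (SE 0.18) for KI against WT and -4.02 (SE 0.12) for KO against KI. With library totals these log2 fold changes were -4.61, -0.66 and -3.96, so their sizes depended on the scaling. The raw counts behind the KO levels were 530 to 619 per library, against 10374 to 13749 in WT, so the low level was well above the floor. In bulk RNA, fewer cells with a transcript and less of it per cell cannot be told apart.

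Plod1, the lysyl hydroxylase known for the helical part of the chain, was at 52.5, 48.6, 52.6 and 52.0 CPM in KO, 35.3, 32.2 and 42.9 CPM in WT, and 54.1, 57.1, 63.0 and 54.6 CPM in KI. Every KO and KI library was above every WT library. The log2 fold change was 0.46 (SE 0.13) for KO against WT and 0.64 (SE 0.14) for KI against WT, and KO against KI was not called (-0.15, SE 0.09). With library totals these values were 0.86, 0.95 and -0.09. The table held 2 entries named Plod1, which were summed. Taken alone, the smaller entry gave 1.38 (SE 0.32) for KO against WT and was called, whereas the larger gave 0.30 (SE 0.16) and was not. In KI against WT they gave 1.28 (SE 0.29) and 0.54 (SE 0.16), both called. How reads were divided between the entries is not given in the sources used here, so the size of the Plod1 difference in KO is uncertain.

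Plod3, which also glycosylates hydroxylysine, was at 30.9, 31.2, 33.1 and 31.1 CPM in KO, 37.98, 41.0 and 45.8 CPM in WT, and 41.0, 38.4, 43.2 and 36.9 CPM in KI. The KO libraries lay below all others, while WT and KI overlapped. On the log2 scale the difference was -0.42 (SE 0.12) for KO against WT and -0.33 (SE 0.09) for KO against KI. For KI against WT it was -0.06, with a 95% interval from -0.33 to 0.20. With library totals the KO against WT value was -0.02 and was no longer called.

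**Figure D1:**
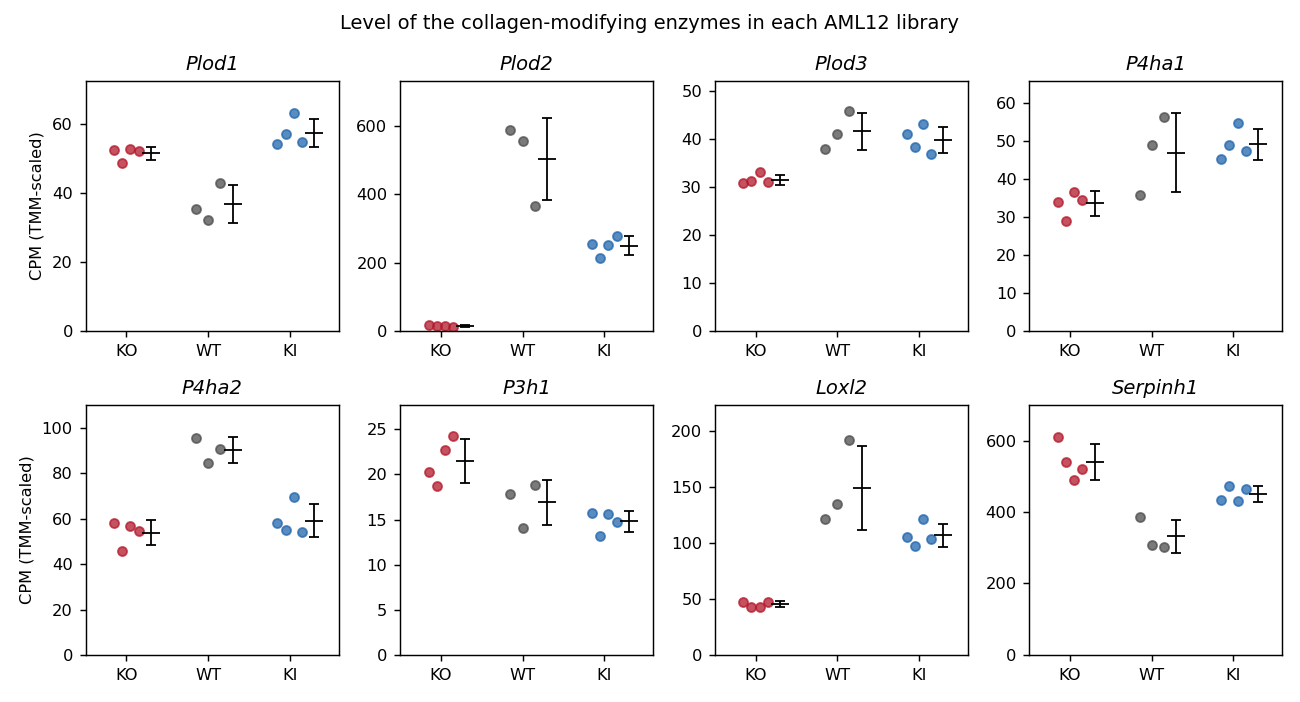
TMM-scaled CPM (vertical axis, linear from 0, a separate scale for each gene) of the 8 fitted members in the KO, WT and KI libraries. Points are libraries and the black mark beside them is the mean with its SD (n = 4, 3 and 4). The Plod2 points of KO lie between 12.6 and 17.4 CPM, against 367 to 588 CPM in WT, and the KO and KI points of Serpinh1 lie above those of WT.

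Because the 3 lysyl hydroxylases moved by different amounts, the make-up of the family differed between the lines. Counts were divided by the length of the longest protein-coding transcript of each gene (3.24 kb for Plod1, 3.66 kb for Plod2 and 3.28 kb for Plod3) and expressed as a share of their sum, which does not depend on the scaling between libraries. Plod2 made up 87.7%, 87.1% and 78.7% of the family in WT, 66.5% to 73.1% in KI and 11.9% to 15.6% in KO. Plod1 made up 5.71% to 10.4% in WT, 16.1% to 20.1% in KI and 52.1% to 55.4% in KO. Plod3 went from 6.33% to 10.9% in WT to 31.1% to 33.1% in KO. The summed level per kb was 28.8 to 30.7 CPM in KO, 128 to 183 CPM in WT and 87.5 to 104 CPM in KI. Thus the leading lysyl hydroxylase transcript was Plod2 in WT and KI and Plod1 in KO.

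P4ha2, an alpha subunit of prolyl 4-hydroxylase, was at 57.9, 45.8, 57.0 and 54.6 CPM in KO, 95.7, 84.4 and 90.6 CPM in WT, and 58.3, 54.9, 69.5 and 54.1 CPM in KI. The WT libraries were above all others, and KO and KI overlapped. The log2 fold change was -0.76 (SE 0.12) for KO against WT and -0.61 (SE 0.13) for KI against WT. KO against KI gave -0.13, with a 95% interval from -0.34 to 0.07. With library totals the KI against WT value was -0.27 and was not called, and that of KO against WT was -0.35 and still called.

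P4ha1, the other alpha subunit, was at 34.0, 29.0, 36.6 and 34.6 CPM in KO, 35.8, 48.8 and 56.2 CPM in WT, and 45.2, 48.9, 54.8 and 47.3 CPM in KI. WT library 5-6 fell within the KO range, so KO and WT overlapped, whereas KO lay below KI throughout. Its log2 fold change was -0.51 (SE 0.16) for KO against WT and -0.54 (SE 0.10) for KO against KI. The first of these was not called without KO 6 (-0.44), WT 7 (-0.45) or WT 8 (-0.33), nor with library totals (-0.12). KI against WT gave 0.06, with a 95% interval from -0.26 to 0.38. Per kb, P4ha2 made up 74.2% to 82.7% of both alpha subunits in WT, 73.5% to 75.3% in KO and 66.7% to 69.7% in KI, so it was the main alpha subunit transcript in every library.

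P3h1, the prolyl 3-hydroxylase, was at 20.2, 18.8, 22.8 and 24.2 CPM in KO, 17.8, 14.1 and 18.8 CPM in WT, and 15.7, 13.2, 15.6 and 14.7 CPM in KI. The KO libraries were above all KI libraries and overlapped WT at the edge. For P3h1 the log2 fold change was 0.54 (SE 0.12) for KO against KI, and those against WT were not called (0.33, SE 0.15, for KO and -0.19, SE 0.16, for KI). The KO against WT difference was called with library totals (0.73), in a fit of all 3 groups (0.35), and without WT 8 (0.44).

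Loxl2, a lysyl oxidase with scavenger receptor domains, was at 47.2, 42.9, 42.6 and 47.5 CPM in KO, 121, 135 and 192 CPM in WT, and 105, 97.2, 121 and 103 CPM in KI. KO lay far below the other groups, and the highest KI library sat just under the lowest WT library. Its log2 fold change was -1.75 (SE 0.16) for KO against WT, a 3.36-fold difference, and -1.24 (SE 0.09) for KO against KI. That of KI against WT was -0.49 (SE 0.17). This last call was lost without WT 8 (-0.26), KI 5 (-0.48), KI 6 (-0.44) or KI 8 (-0.47), and with library totals (-0.18). With library totals the KO values were -1.36 against WT and -1.18 against KI.

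Loxl1, known for elastic fibre cross-linking, had counts of 0, 0, 2 and 0 in KO, 2, 0 and 7 in WT, and 9, 8, 13 and 17 in KI. It did not pass the count filter and was left out of the main fits. Pooled over libraries, the KI level was 2.75 times that of WT (47 against 9 counts, 95% counting interval 1.33 to 6.39). It was 24.0 times that of KO (47 against 2 counts, interval 6.29 to 204.0), where the intervals cover counting error only. Lox, the founding member of the family, had 0 counts in all 11 libraries, which allows a share of at most 7.81e-06% to 1.01e-05% of the counts of a library.

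The lysyl oxidase family was completed with its other 2 genes, Loxl4 and Loxl3. Loxl4 was at 72.0 to 77.4 CPM in KO, 45.2 to 56.1 CPM in WT and 47.2 to 50.8 CPM in KI, and rose in KO against WT (log2 fold change 0.50, SE 0.12, adjusted p = 0.00465 by edgeR's quasi-likelihood test). Loxl3 was named here for the make-up of the family after its values were seen, and was at 5.49 to 11.4 CPM over all libraries. Per kb of transcript, Loxl2 made up 61.03% to 67.5% of the family in WT, 53.2% to 59.7% in KI and 26.2% to 29.1% in KO. Loxl4 made up 28.1% to 35.8%, 35.7% to 38.5% and 64.6% to 67.6%, respectively. The leading lysyl oxidase transcript was thus Loxl2 in WT and KI and Loxl4 in KO, whereas the summed level per kb ranged from 29.6 to 31.5 CPM in KO and from 36.9 to 53.5 CPM in WT.

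**Figure D2:**
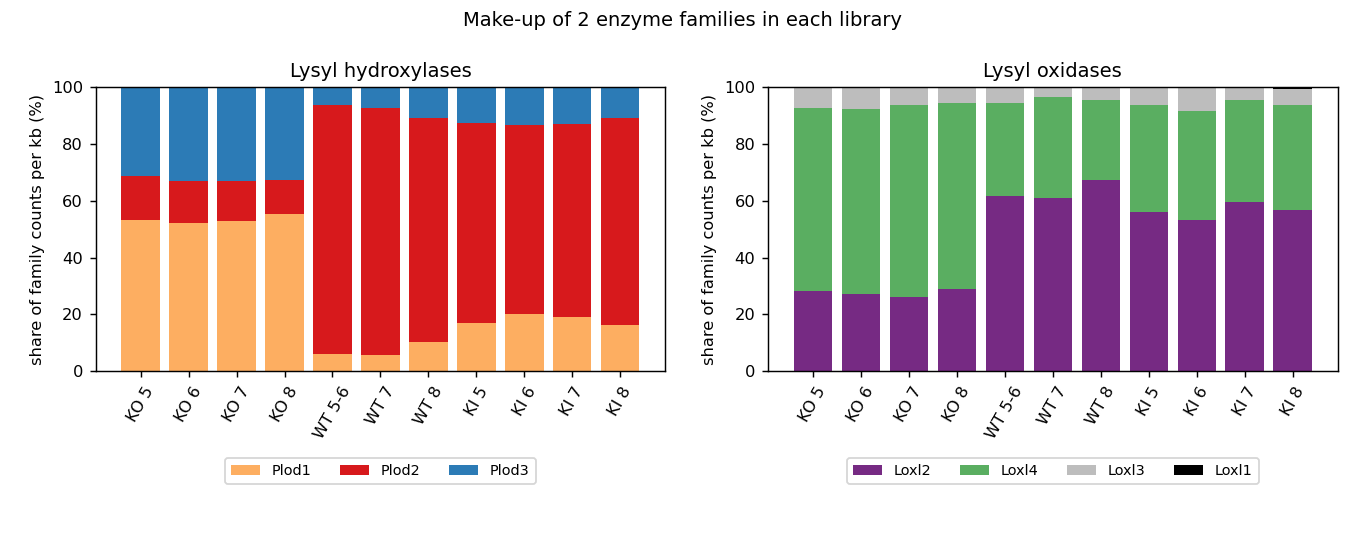
Share of each gene in the counts per kb of transcript (vertical axis, percent) of the lysyl hydroxylases (left) and the lysyl oxidases (right), with a bar for each library. Plod2 makes up 78.7% to 87.7% of its family in WT and 11.9% to 15.6% in KO, and Loxl4 in place of Loxl2 makes up most of its family in KO.

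Serpinh1, the collagen chaperone, was at 609, 539, 490.5 and 520 CPM in KO, 385, 307.5 and 302.5 CPM in WT, and 435, 473, 430.1 and 465 CPM in KI. The 3 groups were separate, with KO highest and WT lowest. The log2 fold change was 0.68 (SE 0.14) for KO against WT, 0.44 (SE 0.14) for KI against WT and 0.26 (SE 0.09) for KO against KI. The KI against WT call was lost without WT 7 (0.39), KI 5 (0.46) or KI 6 (0.42), and the KO against KI call without KO 5 (0.20) or KI 5 (0.24) and in a fit of all 3 groups (0.26). With library totals the values were larger, at 1.11, 0.78 and 0.33.

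Levels were ordered between genes only per kb of transcript, with mean values over libraries. In WT, Serpinh1 (146 CPM per kb, SD 20.3, n = 3) and Plod2 (137, SD 32.5) led and overlapped, followed by P4ha2 (39.9, SD 2.50), Loxl2 (28.1, SD 7.05) and then Plod3, P4ha1 and Plod1 (12.7, 11.6 and 11.3), of which neighbours overlapped. P3h1 (5.30, SD 0.78) was the lowest of the 8. In KI, Plod2 was second at 68.2 CPM per kb (SD 7.46, n = 4), and no longer overlapped Serpinh1 at 198 (SD 9.35). In KO, Serpinh1 was at 237 CPM per kb (SD 22.2, n = 4) and Plod2 was the lowest of the 8 at 4.21 (SD 0.55). The step in KO from Serpinh1 to P4ha2 (23.8, SD 2.44) had no other member within it.

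**Figure D3:**
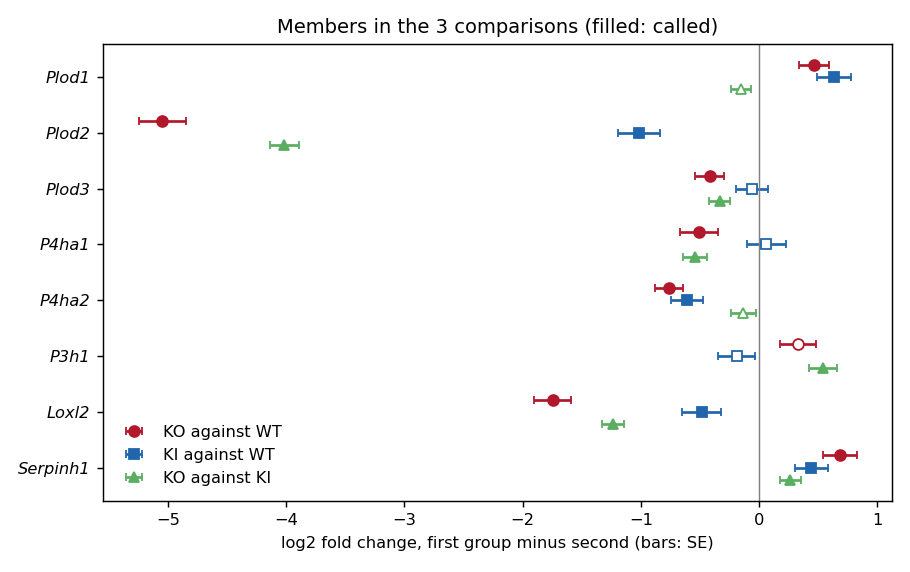
Log2 fold changes (horizontal axis) of the 8 fitted members in the 3 comparisons, with SE bars. Filled marks passed the adjusted p threshold of 0.05 over all genes tested and open marks did not, and Plod2 stands at -5.05 for KO against WT and -1.01 for KI against WT.

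Counted over the set at an adjusted p under 0.05, 2 of the 8 fitted members were called higher in KO than in WT (Plod1, Serpinh1) and 5 lower (Plod2, Plod3, P4ha1, P4ha2, Loxl2), where 26.7% of the 13359 genes tested were called higher and 28.4% lower. In KI against WT, 2 were called higher (Plod1, Serpinh1) and 3 lower (Plod2, P4ha2, Loxl2), where 21.2% of all genes were called higher and 21.0% lower. In KO against KI, 2 were called higher (P3h1, Serpinh1) and 4 lower (Plod2, Plod3, P4ha1, Loxl2), where 27.0% of all genes were called in each direction. The medians of the 8 log2 fold changes were -0.46, -0.13 and -0.24, against -0.03, -0.02 and 0.00 over all genes. With library totals the members split into 3 higher and 3 lower in KO against WT, where 42.5% of all genes were called higher and 15.9% lower. In KI against WT they then split into 2 higher and 1 lower, where 34.1% of all genes were called higher and 10.6% lower. Since the set was chosen on these values, nothing is read from the counts, and the comparisons against WT share the same 3 WT libraries.

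A list of 30 partner genes was then examined, chosen for their known roles in the same pathway. Of these, 23 were tested in KO against WT, where 4 were higher and 14 lower by edgeR's quasi-likelihood test, and 24 in KI against WT, where 6 were higher and 5 lower. In KO against KI, 6 were higher and 13 lower of 24. Their median log2 fold changes were -0.52, -0.05 and -0.39, beside -0.03, -0.02 and 0.00 over all genes. Of all genes, 26.7% were called higher and 28.4% lower in KO against WT, 21.2% and 21.0% in KI against WT, and 27.0% each way in KO against KI. The split depended on the scaling, since with library totals 6 were higher and 5 lower in KO against WT, where 42.5% of all genes were higher and 15.9% lower, and 7 were higher and 4 lower in KI against WT, where 34.1% were higher and 10.6% lower. The 9 partner genes that were no longer called in KO against WT with library totals were P4hb, Ppib, Fkbp14, Tmem38b, Tll1, Efemp2, Atp7a, Atox1 and Slc23a2. P4ha3, Adamts2 and Adamts3 had no count in any library. Some of the counted genes entered a fit only through the group where they were high, so their direction was set by that entry. They include P3h2 (high in KI), Crtap where KI was compared (low in KI), and Colgalt2 and Postn where KO was compared (low in KO).

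Among subunits and complex partners of the members, P4hb, which supplies the beta subunit to P4ha1 and P4ha2, was at 869 to 938 CPM in KO, 1237 to 1574 CPM in WT and 782 to 829.5 CPM in KI. It was lower in KO (log2 fold change -0.64, SE 0.14, adjusted p = 0.00238) and in KI (-0.81, SE 0.15, adjusted p = 0.00088) than in WT by edgeR's quasi-likelihood test, and the KO value was -0.24 (adjusted p = 0.201) with library totals. Crtap, the scaffold of the P3h1 complex, had counts of 335, 364, 361 and 560 in KO, 118, 96 and 135 in WT, and 0, 0, 0 and 4 in KI. Crtap rose in KO (1.23, SE 0.19, adjusted p = 0.000253), and pooled over libraries the WT level was 166 times that of KI (349 against 4 counts, 95% counting interval 64.1 to 611). Thus P3h1 was detected in KI at 13.2 to 15.7 CPM beside a near absence of Crtap transcript. Ppib, the isomerase of that complex, gave -0.52 in KO (SE 0.19, adjusted p = 0.0412) with overlapping groups, and the call was lost without KO 6, KO 7, KO 8, WT 5-6 or WT 7 (-0.51 to -0.28) and with library totals (-0.08). P3h2, a related prolyl 3-hydroxylase, had 12 to 36 counts in KI and 0 in WT, at least 17.6-fold higher in KI against a floor of 3 counts over the WT group.

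P3h4, which associates with Plod1 and P3h3 in a lysyl hydroxylation complex, was lower in KO (-0.94, SE 0.18, adjusted p = 0.00121 by edgeR's quasi-likelihood test) and in KI (-0.77, SE 0.21, adjusted p = 0.0104) than in WT, the latter not called with library totals (-0.42). Tmem38b, an ion channel of the endoplasmic reticulum needed for collagen modification, was at 22.2 to 29.8 CPM in KO, 39.6 to 42.8 CPM in WT and 13.2 to 15.6 CPM in KI (-0.78, SE 0.14, adjusted p = 0.000788 in KO and -1.51, SE 0.14, adjusted p = 6.32e-06 in KI). All 3 groups of Tmem38b were separate. Colgalt2, which adds galactose to hydroxylysine, had counts of 0, 5, 6 and 13 in KO and 284 to 433 in WT (log2 fold change -6.33, SE 0.45, adjusted p = 1.51e-06). KI held 301 to 420 counts and was not called against WT (-0.42, SE 0.18, adjusted p = 0.0711). Its relative Colgalt1 did not pass the test in KO (-0.01, SE 0.12, adjusted p = 0.938) and was called higher in KI (0.37, SE 0.14, adjusted p = 0.0478), a call lost with RLE scaling (0.35), without a filter (0.38) and without WT 5-6, WT 7, KI 5, KI 6 or KI 7 (0.31 to 0.37).

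**Figure D4:**
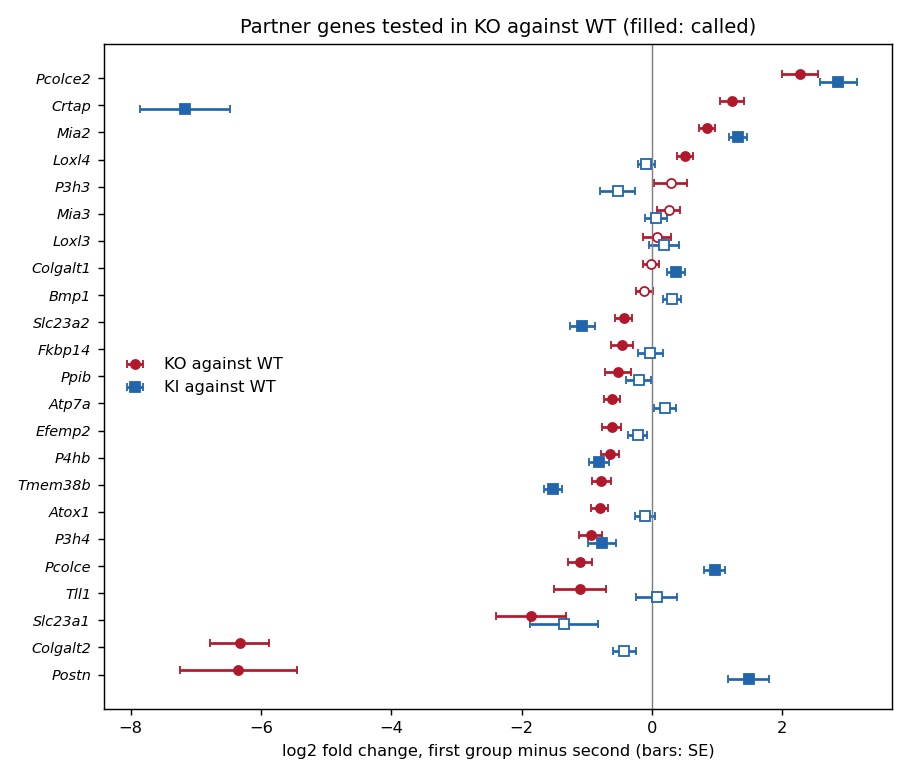
Log2 fold changes with SE bars (horizontal axis) of the 23 partner genes tested in KO against WT, ordered by that value, with KI against WT beside each. Filled marks passed the adjusted p threshold of 0.05, and Colgalt2 and Postn lie near -6.3 in KO, whereas Crtap lies at -7.17 in KI.

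The list also held genes of export from the endoplasmic reticulum and of later processing. Mia2, involved in the secretion of large cargo, rose in KO (0.84, SE 0.12, adjusted p = 0.000177 by edgeR's quasi-likelihood test) and in KI (1.33, SE 0.14, adjusted p = 1.76e-05). Pcolce2, an enhancer of procollagen C-proteinase, was at 10.8 to 11.7 CPM in KO, 1.20 to 2.90 CPM in WT and 14.5 to 19.9 CPM in KI. It rose in both (2.27, SE 0.28, adjusted p = 6.08e-05 and 2.86, SE 0.28, adjusted p = 9.64e-06). The related Pcolce was at 4.53 to 7.00 CPM in KO, 10.97 to 13.6 CPM in WT and 22.2 to 27.5 CPM in KI, and so fell in KO (-1.10, SE 0.19, adjusted p = 0.000541) and rose in KI (0.97, SE 0.16, adjusted p = 0.000483). Postn, which assists the activation of lysyl oxidase, had counts of 3, 0, 0 and 0 in KO, 49, 66 and 30 in WT, and 138 to 255 in KI. Pooled, the WT level was 93.7 times that of KO (145 against 3 counts, 95% counting interval 31.4 to 459), and KI was above WT (1.48, SE 0.32, adjusted p = 0.0028). Tll1, a procollagen proteinase, gave -1.11 in KO (SE 0.40, adjusted p = 0.034) with overlapping groups, and its call was lost without KO 6, KO 7, KO 8, WT 7 or WT 8 (-1.08 to -0.82).

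Cofactor supply was followed with 4 genes, the copper transporter Atp7a, the copper chaperone Atox1 and the ascorbate transporters Slc23a1 and Slc23a2. All 4 were lower in KO than in WT by edgeR's quasi-likelihood test, at -0.62 (SE 0.13, adjusted p = 0.00197), -0.80 (SE 0.14, adjusted p = 0.00055), -1.85 (SE 0.53, adjusted p = 0.012) and -0.44 (SE 0.13, adjusted p = 0.0159). With library totals only Slc23a1 among them was still called, which had 9 to 37 counts in KO and WT libraries and lost its call without WT 5-6 (-1.67). In KI, Slc23a2 was lower than in WT (-1.07, SE 0.19, adjusted p = 0.000735) and the other 3 were not called. Slc23a1 gave -1.35 in KI (SE 0.52, adjusted p = 0.0527) with groups that did not overlap, and was called with RLE scaling (-1.38, adjusted p = 0.0496), with DESeq2 (-1.38, adjusted p = 0.0259) and without KI 5 (-1.67, adjusted p = 0.0378). Efemp2, a lysyl oxidase partner in elastic fibres, was lower in KO (-0.62, SE 0.14, adjusted p = 0.00343), and Fkbp14, a prolyl isomerase, gave -0.46 (SE 0.17, adjusted p = 0.0378) with overlapping groups and a call lost without KO 6, KO 7, KO 8, WT 5-6 or WT 7 (-0.48 to -0.32).

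Of 8 substrate genes, 5 had 0 counts in all libraries (Col1a2, Col3a1, Col5a1, Col5a2 and Eln), and Col1a1 had at most 35 counts. Col4a1 and Col4a2, the main chains of basement membrane collagen, were the substrates on the list that were well expressed. Col4a1 was at 142 to 163 CPM in KO, 119 to 178 CPM in WT and 286 to 325 CPM in KI, and Col4a2 at 108 to 119, 112 to 149.6 and 225 to 266 CPM, respectively. Both rose in KI against WT (1.11, SE 0.16, adjusted p = 0.000192 and 0.92, SE 0.15, adjusted p = 0.000381 by edgeR's quasi-likelihood test). Neither was called in KO against WT (0.10, SE 0.15, adjusted p = 0.596 and -0.19, SE 0.13, adjusted p = 0.235), but Col4a1 was called higher in KO without WT 8 (0.34, adjusted p = 0.0135). Beside these chains, Plod2 was lower than in WT in both edited lines, and Serpinh1 was higher in both.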

How the data were processed

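RNA-seq counts of AML12 cells (4 KO, 3 WT and 4 KI libraries of polyA RNA) were used as deposited by the authors, as raw counts per gene entry. The submitters' processing notes name HISAT2, TopHat2, Bowtie2 and StringTie, and versions, genome build and counting rule are not given in the sources used here. Of 26472 lines, 10 with broken fields were left out, and entries were summed by gene name (24849 names, 1131 of them with several entries, Plod1 with 2). Genes were filtered with filterByExpr (minimum count 10), scaled by TMM and tested pairwise with edgeR 4.0.16 (quasi-likelihood, robust) in R 4.3.3, using only the libraries of the groups compared, with Benjamini-Hochberg adjustment over all genes tested and a threshold of 0.05. SE was taken from the fold change and its F statistic, and 95% intervals from that SE on the normal scale. The fit was tested on simulated data with 200 changed genes. DESeq2 1.42.0, other scalings and filters, leaving out each library, and a replicate block were tried as alternatives.

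The members and the gene lists were chosen with earlier results of these data known. Named were all members, Txndc5, and partner or substrate genes called against WT in KO or KI, and other listed genes only as untested, near the floor or by count. Loxl3 was named outside this rule. The partner and substrate genes were listed from their known roles. Totals of 29840366 to 38422243 counts per library set the precision, a gene at 0 counts is limited by a floor of 3 counts, and counting intervals (exact, conditional on the summed counts) cover counting error only. Transcript lengths came from GENCODE M21 and promoter windows from RefSeq. Libraries within a group all differed by more than counting noise.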

Additional observations from a re-analysis of the deposited data

Results flagged for a closer look

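Library values far from the rest of their group were sought in 64 groups of 4 libraries (KO and KI, for the members, Txndc5 and the named partner and substrate genes), where the gap to the nearest library was divided by the range of the group. Chance marks about 1 in 20 such groups, or 3.2 of these, and 9 exceeded the critical value of Dixon's test at the 95% level. Among the members, Plod1 in KO (0.852) had KO 6 at 48.6 CPM beside 52.0 to 52.6 CPM, and Plod3 in KO (0.857) had KO 7 at 33.1 CPM beside 30.9 to 31.2 CPM, both small steps next to the difference from WT. Of the partners, P4hb in KI (0.830) had KI 8 at 829.5 CPM beside 782 to 790 CPM. Tmem38b in KO (0.918) had KO 7 at 29.8 CPM beside 22.2 to 22.8 CPM, and Slc23a1 in KO (0.942) had KO 7 at 0.720 CPM beside 0.253 to 0.280 CPM. In 4 groups a lone library held all the counts, which gives a ratio of 1.000: Loxl1 in KO (2 counts), Postn in KO (3 counts), P3h2 in KO (6 counts) and Crtap in KI (4 counts). With the other libraries at 0 the ratio of these 4 groups was fixed, so the rate of 1 in 20 does not apply to them. The groups also share the same libraries, so nothing is read from 9 beside 3.2. The WT libraries were not searched in this way.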

How the results depend on the processing

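Of the 24 member fold changes, RLE scaling, no filter, DESeq2 and the table without the 2 largest new entries each left 24 with their direction and call. Library totals left 17. Members called in KI against WT then went from 5 to 3, partner genes called in KO against WT from 18 to 11, and the uncalled KI against WT values of Plod3 and P3h1 changed sign (0.26 and 0.13). The cause was not tested. Without a filter Loxl1 also entered the fits, and the members called in KO against KI went from 6 to 7. Leaving out a library gave 6 to 7 members called in KO against WT, 3 to 5 in KI against WT and 5 to 6 in KO against KI. The partner genes called were then 15 to 19, 10 to 12 and 17 to 20, and all genes called 6161 to 8449, 4276 to 6969 and 6515 to 7230. The highest totals of all genes against WT came without WT 8 (8449 for KO and 6969 for KI). WT 8 had a TMM factor of 0.947, beside 0.744 for WT 5-6 and 0.816 for WT 7. Over all fits that left out a library, the uncalled KI against WT values of Plod3 ran from -0.122 to 0.013 (without WT 8). Those of P4ha1 ran from -0.097 (without WT 5-6) to 0.214, so both changed sign. The smaller Plod1 entry alone gave 0.13 in KO against KI, where the sum gave -0.15.

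Same-numbered libraries deviated together from their group means with r between -0.19 and 0.21. In KO against WT they gave 0.16, -0.02, 0.02 and 0.21, and in KI against WT -0.03, 0.06, -0.07 and -0.19. Groups of 3 or 4 libraries are too small to decide in this way whether the replicate numbers pair the libraries. With the replicate number as a block, 3 members were called in KI against WT, as Loxl2 (-0.42) and Serpinh1 (0.43) lost their call, and P3h1 gained it in KO against WT (0.35). Of the partner genes, Colgalt1 lost its call in KI against WT under the block (0.38). Genes called over the whole table were then 8183, 4891 and 6453, against 7364, 5722 and 7171 without the block. Of 24 group means of CPM, 9 moved by more than 1 SD with library totals.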
